A study of Homo sapiens with 6 samples.

Results

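Small nucleolar RNAs (snoRNAs) are short guide RNAs that direct chemical modification of ribosomal and spliceosomal RNA, and in human cells nearly all of them are cut from the introns of longer host transcripts. The noncoding hosts are named SNHG (small nucleolar RNA host gene) or carry older names such as GAS5 and ZFAS1. Their introns release the snoRNA, and their spliced exons are left as a long noncoding RNA. For several of them, GAS5 being the textbook case, that spliced RNA is bound by ribosomes and destroyed by nonsense-mediated decay, a pathway that removes transcripts with early stop codons. The level of a spliced host therefore depends on its transcription and on its decay, and a table of RNA levels does not separate these.

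The transcripts described here are the rows of the gene table named SNHG followed by a number, plus GAS5, ZFAS1, EPB41L4A-AS1, DANCR, CYTOR, TP53TG1, NEAT1 and MALAT1. They make up 29 of 26902 rows, of which 21 are SNHG rows. The names gave 28 rows directly, and CYTOR, a cytoplasmic long noncoding RNA, was found as LINC00152, a symbol that RefSeq lists as its synonym. The list was partly chosen by the measured values of the same comparison, because the 0 TPM of SNHG9 in all control libraries was known when the list was drawn up. Values of these transcripts are therefore given as a description, with no p-value. By GENCODE 29 gene bounds (GRCh38), 24 of the 29 hold at least 1 snoRNA or the related small Cajal body RNA (scaRNA). These small RNAs were taken from GENCODE 29 and RefSeq together, by position within the gene only. CYTOR, MALAT1, NEAT1 and TP53TG1 hold none, and SNHG24 had no entry in GENCODE 29.

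RNA was sequenced from HMCB, a human melanoma cell line that carries the NRAS mutation Q61K in both groups. The siAHCYL1 group (3 libraries) had received siRNA targeting AHCYL1 and the siNC group (3 libraries) a control siRNA, and RNA was taken after 3 days. The study asked how AHCYL1, a protein related to adenosylhomocysteinase that binds the IP3 receptor calcium channel, supports the growth of such cells. The labels do not give the number of siRNA sequences used, so effects of a single siRNA cannot be told apart from those of lowering AHCYL1.

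The deposited values are TPM, a length-corrected share of all transcripts, which keep no sequencing depth, so the depth behind each value is unknown. AHCYL1 averaged 11.9 ± 1.39 TPM in siAHCYL1 cells and 138 ± 10.2 TPM in siNC cells (SD, n = 3 each), or 8.56% of the control level (log2 difference -3.44, SE 0.096, limma adjusted p = 5.64e-08; exact permutation test, two-sided p = 0.1, the smallest that 3 against 3 libraries can give). Between 13035 and 13189 genes per library reached 1 TPM. The 8 melanocytic lineage markers summed to 1036 to 1078 TPM in siAHCYL1 cells and 1061 to 1085 TPM in siNC cells, nearly all of it SOX10 (1009 TPM in siAHCYL1 cells and 1037 TPM in siNC cells). Within that sum, DCT, a pigment enzyme, fell to 0.34 TPM in siAHCYL1 cells, against 11.4 TPM in siNC cells (limma adjusted p = 1.14e-06), S100B was at 28.98 TPM in siAHCYL1 cells and 10.7 TPM in siNC cells (limma adjusted p = 9.74e-06), PMEL and TYRP1 were called higher, and MLANA and TYR stayed under 1 TPM in every library.

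Markers of other cell types were partly present. The 6 fibroblast markers summed to 26.1 to 32.4 TPM in siAHCYL1 cells and 15.3 to 17.9 TPM in siNC cells, mostly LUM, which was higher (28.96 TPM in siAHCYL1 cells and 14.0 TPM in siNC cells, limma adjusted p = 8.82e-05). COL1A1 was called lower and the other 4, COL1A2 and DCN among them, were under 1 TPM in every library. The 6 epithelial markers summed to 28.99 to 33.2 TPM in siAHCYL1 cells and 35.3 to 45.6 TPM in siNC cells, with CLDN4 and KRT18 called lower, KRT8 called higher, and EPCAM, CDH1 and KRT5 under 1 TPM. The 7 immune and blood markers summed to 11.4 to 17.5 TPM in siAHCYL1 cells and 14.0 to 28.4 TPM in siNC cells, with PTPRC called higher, HBA1 called lower and the other 5 under 1 TPM. Of 4 endothelial markers, KDR was called lower and PECAM1, VWF and CDH5 were under 1 TPM, with sums of 6.26 to 7.19 TPM in siAHCYL1 cells and 8.81 to 11.2 TPM in siNC cells. The part of these genes in the results below was not tested.

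A transcript was called changed at an adjusted p under 0.05 in a limma fit of log2(TPM + 1) over the 13266 genes that reached 1 TPM in 3 or more libraries. Differences below are siAHCYL1 over siNC on that log2 scale, with their standard error (SE). Of the 29 transcripts, 26 passed the filter, and of these 8 were called higher, 2 lower and 16 were not called. That is 38.5% called, beside 51.6% of all genes tested. In the separate directions, 30.4% of all genes were called higher and 21.2% lower. The 3 siAHCYL1 libraries lay wholly above the 3 siNC libraries for 8 of the 26 and wholly below for 2, and the groups did not overlap for 59.2% of all genes. Because SNHG9 passed only through the group in which it was high, these counts describe the list and support nothing further. The median log2 difference was 0.19 over the 26 transcripts and 0.06 over all genes. Over all genes the calls were 4030 higher and 2814 lower, whereas median-of-ratios scaling gave 3613 higher and 3583 lower and quantile normalization 3471 higher and 3743 lower.

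**Figure D1:**
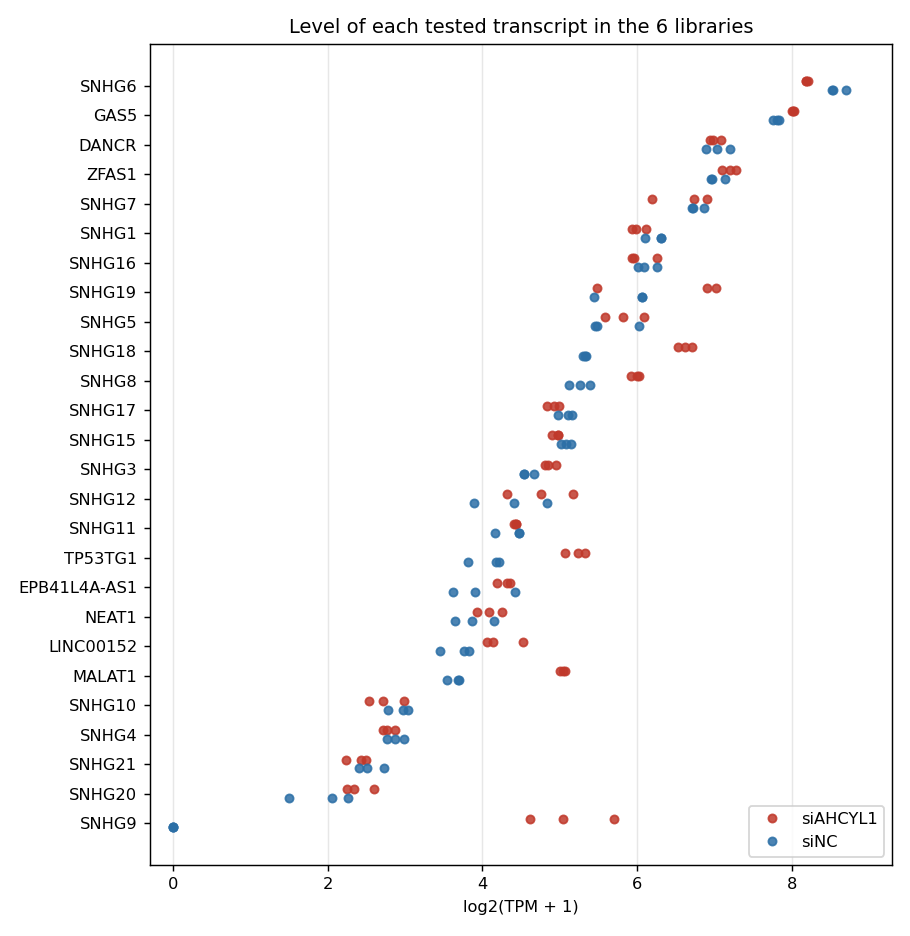
Level of each of the 26 tested transcripts as log2(TPM + 1), one point per library, with siAHCYL1 libraries above siNC libraries in each row and rows ordered by siNC mean. SNHG9 lies at 0 in the 3 siNC libraries, whereas SNHG6, at the top, lies lower in siAHCYL1 than in siNC cells.

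In siNC cells the transcripts spanned a wide range of abundance. SNHG6 was the most abundant at 383 TPM, 5 transcripts had a mean above 100 TPM, and SNHG20 was the least abundant tested transcript above 0 at 2.92 TPM. The 29 rows together summed to 1612, 1729 and 1676 TPM in siAHCYL1 cells and to 1524, 1466 and 1567 TPM in siNC cells. Every siAHCYL1 sum was above every siNC sum. Without SNHG9, the siAHCYL1 sums were 1561, 1705 and 1644 TPM and the groups overlapped.

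SNHG9 hosts the H/ACA snoRNA SNORA78, a class that guides the conversion of uridine to pseudouridine. The gene lies at chr16:1964959-1965509 on the plus strand (GRCh38), and is 551 bases long. SNHG9 was listed at 50.98, 23.43 and 32.00 TPM in siAHCYL1 cells and at 0 in all 3 siNC libraries. It averaged 35.5 ± 14.1 TPM in siAHCYL1 cells (SD, n = 3). The level differed between siAHCYL1 libraries, replicate 1 being the highest, but all 3 were above every siNC library. Of the 26902 rows, SNHG9 was the only one at 5 TPM or more in all siAHCYL1 libraries and at 0 in all siNC libraries, and the histone gene HIST1H4C was the only one with the opposite pattern. At 10 TPM or more, SNHG9 stayed the only one and no row had the opposite pattern. SNHG9 was picked out for its 0 in siNC cells, so these counts describe that choice and support nothing further. An exact 0 in estimated abundances can be a failed estimate, so no fold is given. RPS2, which encodes a protein of the small ribosomal subunit, starts 99 bases away on the other strand, and its level was 5763 ± 363 TPM in siAHCYL1 cells and 8389 ± 319 TPM in siNC cells. Its fall was called (log2 difference -0.54, SE 0.067, limma adjusted p = 0.000157). The libraries were not directional, so reads of genes on opposite strands cannot be told apart where they overlap. By the gene bounds used here, SNHG9 and RPS2 do not overlap, but the annotation behind the deposited values may differ. The part of read assignment in the values of SNHG9 was not tested.

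The snoRNAs carried by SNHG9, SNHG18 and SNHG8, the 3 hosts with the largest differences, are shown because they are the products that these introns would release. Each is given 5′ to 3′ as DNA from GENCODE 29, and capitals mark the C box (TGATGA) and D box (CTGA) of the C/D snoRNA or the ACA trinucleotide of the H/ACA snoRNAs.
SNORA78 in SNHG9, chr16:1965184-1965310, plus strand: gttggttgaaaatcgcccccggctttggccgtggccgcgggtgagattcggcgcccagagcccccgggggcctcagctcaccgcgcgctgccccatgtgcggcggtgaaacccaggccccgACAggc
SNORD123 in SNHG18, chr5:9548836-9548905, plus strand: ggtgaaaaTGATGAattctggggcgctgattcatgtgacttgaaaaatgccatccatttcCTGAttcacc
SNORA24 in SNHG8, chr4:118279190-118279320, plus strand: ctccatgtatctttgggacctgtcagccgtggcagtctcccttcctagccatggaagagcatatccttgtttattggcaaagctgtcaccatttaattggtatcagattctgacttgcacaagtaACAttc

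The snoRNAs themselves were almost absent from the table. Of 457 rows named SNORD, SNORA or SCARNA, 450 were at 0 in all 6 libraries and 0 rows were above 0 in all 6. The annotation placed 57 snoRNAs or scaRNAs inside the 24 hosts, 56 of these had a row, and 1 was above 0 in any library. That one was SCARNA17, a guide RNA of the Cajal body, which lies in SNHG22 and was listed at 1.64, 5.72 and 3.41 TPM in siAHCYL1 cells and at 0 in all siNC libraries. SNORA78, SNORD123 and SNORA24 were at 0 in every library. The host values below are those assigned to the long transcripts, spliced or unspliced, and say nothing about the amounts of the released guides. Whether the host values hold any reads from the guides was not tested.

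SNHG18, host of the C/D snoRNA SNORD123, lies at chr5:9546200-9550609 on the plus strand. It was at 96.96, 103.23 and 90.90 TPM in siAHCYL1 cells, against 39.63, 39.06 and 38.57 TPM in siNC cells. The siNC libraries lay close together, and every siAHCYL1 library was far above them. The ratio of means was 2.48 and the log2 difference 1.29 (SE 0.071), called higher.

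SNHG8 hosts SNORA24 and lies at chr4:118278709-118279823 on the plus strand. Its level was 59.50, 64.29 and 63.18 TPM in siAHCYL1 cells, against 41.09, 33.61 and 37.32 TPM in siNC cells. The groups did not overlap. The means were 62.3 ± 2.51 TPM in siAHCYL1 cells and 37.3 ± 3.74 TPM in siNC cells, a ratio of 1.67, and the log2 difference was 0.73 (SE 0.087), called higher. SNHG18 and SNHG8 were called higher under every alternative tried.

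Smaller differences were called for GAS5 and SNHG3. GAS5, the growth arrest-specific transcript with 11 snoRNAs inside its gene bounds, lies at chr1:173863900-173868882 on the minus strand. Its level was 256.76, 254.14 and 260.09 TPM in siAHCYL1 cells, against 223.80, 215.16 and 227.26 TPM in siNC cells. The groups did not overlap, and the log2 difference was 0.21 (SE 0.055). The call was lost with median-of-ratios scaling (0.14) and without siNC replicate 2 (0.19). SNHG3, which hosts the H/ACA snoRNAs SNORA73A and SNORA73B, was at 30.03, 27.11 and 27.73 TPM in siAHCYL1 cells, against 24.35, 22.30 and 22.28 TPM in siNC cells. It was called higher at a log2 difference of 0.29 (SE 0.084), and the call was lost without siNC replicate 2 or without siNC replicate 3 (0.27 in each).

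SNHG6 and SNHG1 were called lower. SNHG6, host of SNORD87 on chromosome 8, was at 294.68, 289.43 and 290.49 TPM in siAHCYL1 cells, against 413.63, 367.95 and 367.05 TPM in siNC cells. The siAHCYL1 libraries lay close together and below every siNC library. The log2 difference was -0.39 (SE 0.063), with -0.46 to -0.33 over the alternatives, all called. SNHG1 holds 8 C/D snoRNAs, SNORD22 and SNORD25 to SNORD31, inside its gene bounds and lies at chr11:62851988-62855914 on the minus strand. It was at 62.31, 68.18 and 59.88 TPM in siAHCYL1 cells, against 67.88, 77.97 and 77.97 TPM in siNC cells. Here siAHCYL1 replicate 2 lay just above siNC replicate 1, so the groups overlapped. The log2 difference was -0.23 (SE 0.083). The call was lost without siNC replicate 2 or 3 (-0.20 in each), without siAHCYL1 replicate 1 (-0.22) and without siAHCYL1 replicate 3 (-0.19). It was also lost with no filter, and with no intensity trend and robust moderation combined.

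**Figure D2:**
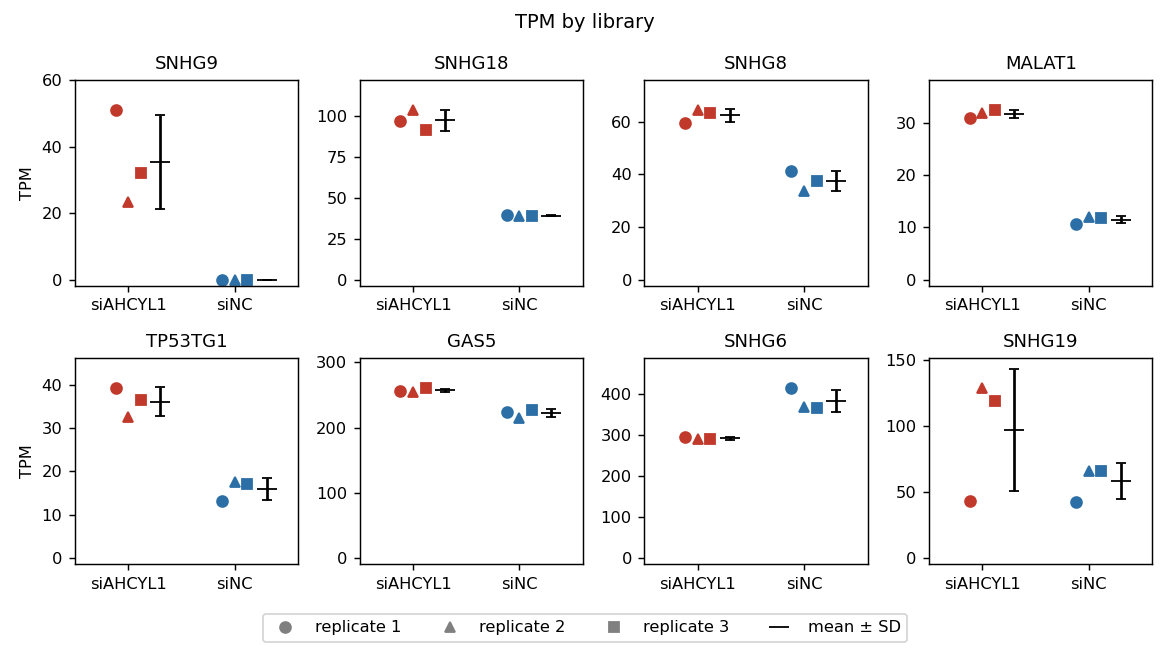
TPM per library for 8 of the transcripts, siAHCYL1 left and siNC right, with marker shape giving the replicate number and bars the mean ± SD (n = 3). SNHG9, SNHG18, SNHG8, MALAT1, TP53TG1 and GAS5 lie higher in siAHCYL1 cells, SNHG6 lies lower, and SNHG19 is low in replicate 1 of both groups.

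Of the 22 tested hosts of a snoRNA or scaRNA, 15 were not called. That left 31.8% called, beside 51.6% of all genes, and over the 22 the median log2 difference was 0.11. Among the abundant ones, DANCR, host of SNORA26 and named for its action against differentiation, was at 124.78, 122.07 and 134.60 TPM in siAHCYL1 cells, against 145.73, 117.19 and 129.50 TPM in siNC cells. ZFAS1, which lies beside ZNFX1 and carries 3 C/D snoRNAs, was at 153.51, 146.30 and 135.80 TPM in siAHCYL1 cells, against 123.29, 124.47 and 139.65 TPM in siNC cells. Only siNC replicate 3 overlapped the siAHCYL1 range of ZFAS1. Its log2 difference of 0.17 (SE 0.075) was not called, and without siNC replicate 3 it was called at 0.23.

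SNHG19, host of SNORD60 and 562 bases long, had the largest difference that was not called. It was at 43.49, 128.60 and 119.00 TPM in siAHCYL1 cells, against 42.59, 66.08 and 65.85 TPM in siNC cells. Replicate 1 of each group was low and nearly equal, whereas replicates 2 and 3 of siAHCYL1 cells were above every siNC library. The log2 difference was 0.61 (SE 0.36). It was called higher without siAHCYL1 replicate 1 (1.10) and without replicate 1 of both groups (0.90), and was not called without siNC replicate 1 (0.40), siAHCYL1 replicate 2 (0.33) or siAHCYL1 replicate 3 (0.39). SNHG7, host of SNORA17A and SNORA17B, was at 72.36, 118.62 and 105.78 TPM in siAHCYL1 cells, against 103.67, 104.85 and 115.40 TPM in siNC cells, again lowest in replicate 1 of both groups. In all, 6 of the transcripts, MALAT1 and NEAT1 among them, were lowest in replicate 1 of both groups. RN7SL1, the RNA of the signal recognition particle, was also lowest there, at 2314, 8331 and 12878 TPM in siAHCYL1 cells and 3943, 7004 and 11925 TPM in siNC cells. The share of all genes lowest in replicate 1 of both groups is not given, so the count of 6 is a description only. The part of the replicate 1 libraries in these results was not tested beyond leaving them out.

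SNHG12, which carries 4 snoRNAs, was at 18.97, 35.16 and 25.97 TPM in siAHCYL1 cells, against 20.24, 13.80 and 27.53 TPM in siNC cells. SNHG5, host of SNORD50A and SNORD50B, was at 55.33, 66.99 and 46.91 TPM in siAHCYL1 cells, against 42.83, 43.53 and 63.95 TPM in siNC cells. In both, the groups overlapped widely, and over the alternatives the log2 difference ran from 0.13 to 0.60 for SNHG12 and from 0.05 to 0.36 for SNHG5, with no call. EPB41L4A-AS1, host of SNORA13, was at 17.24, 19.41 and 18.91 TPM in siAHCYL1 cells, against 11.32, 13.92 and 20.41 TPM in siNC cells. SNHG20, host of SCARNA16, was at 4.07, 3.75 and 5.08 TPM in siAHCYL1 cells, against 1.83, 3.14 and 3.80 TPM in siNC cells. In both, siNC replicate 3 was the only siNC library inside or above the siAHCYL1 range. The log2 difference of EPB41L4A-AS1 was 0.30 with all libraries, 0.52 and called without siNC replicate 3, and 0.13 and not called without siNC replicate 1. That of SNHG20 was 0.46 with all libraries, 0.62 and called without siNC replicate 3, and 0.24 and not called without siNC replicate 1.

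SNHG15, host of SNORA9, was at 30.36, 30.60 and 28.94 TPM in siAHCYL1 cells, against 32.95, 31.23 and 34.26 TPM in siNC cells. SNHG17, host of 4 members of the SNORA71 family, was at 29.38, 30.71 and 27.49 TPM in siAHCYL1 cells, against 30.42, 34.74 and 33.32 TPM in siNC cells. The libraries of SNHG15 did not overlap and those of SNHG17 overlapped by 1. Their log2 differences of -0.13 and -0.16 were not called, but were called lower with median-of-ratios scaling (-0.19 and -0.23) and quantile normalization (-0.21 and -0.25).

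SNHG16, host of SNORD1A, SNORD1B and SNORD1C, was at 75.14, 61.19 and 59.86 TPM in siAHCYL1 cells, against 75.43, 66.95 and 63.53 TPM in siNC cells. SNHG11, host of SNORA60 and SNORA71E, was at 20.55, 20.32 and 20.56 TPM in siAHCYL1 cells, against 21.13, 16.91 and 21.25 TPM in siNC cells. For both, the groups overlapped. The hosts below these were SNHG4 (5.56, 5.78 and 6.32 TPM in siAHCYL1 cells, against 6.28, 5.82 and 6.89 TPM in siNC cells), which carries SNORA74A, and SNHG10 (4.77, 6.91 and 5.57 TPM in siAHCYL1 cells, against 5.89, 7.24 and 6.88 TPM in siNC cells), which carries SCARNA13. SNHG21, host of SCARNA15, was at 4.64, 4.39 and 3.71 TPM in siAHCYL1 cells, against 4.70, 4.31 and 5.61 TPM in siNC cells. Across the 16 uncalled transcripts the log2 differences ran from -0.19 to 0.61. SNHG22, SNHG24 and SNHG25 were not tested. SNHG24 and SNHG25 were at 0 in all libraries, and SNHG22 was at 0 in all but siNC replicate 2, where it was at 0.20 TPM.

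**Figure D3:**
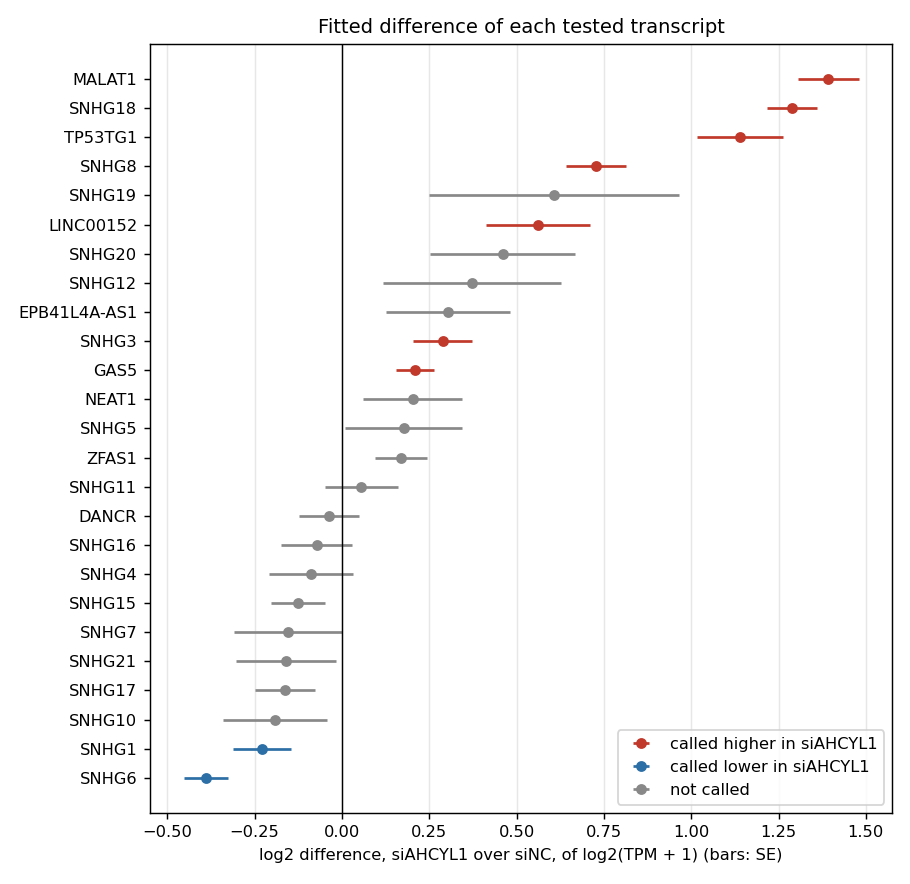
Fitted log2 difference, siAHCYL1 over siNC, of log2(TPM + 1) for 25 tested transcripts, with SE bars. SNHG9 is not drawn because it was listed at 0 in siNC cells. MALAT1, SNHG18 and TP53TG1 lie above 1, and SNHG6 and SNHG1 are the lowest.

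The 4 annotated transcripts that hold no snoRNA were included as related noncoding RNAs. Of these, 3 were called higher, as were 30.4% of all genes. MALAT1, a nuclear RNA that concentrates in speckles, bodies that store splicing factors, lies at chr11:65497688-65506516 on the plus strand. It was at 30.97, 31.85 and 32.45 TPM in siAHCYL1 cells, against 10.68, 11.96 and 11.83 TPM in siNC cells. Each group lay within a narrow range, the ratio of means was 2.76, and the log2 difference was 1.39 (SE 0.087), with 1.31 to 1.46 over the alternatives. NEAT1, the RNA on which paraspeckles, another kind of nuclear body, are built, lies next to MALAT1 on the chromosome. It was at 14.28, 18.08 and 16.03 TPM in siAHCYL1 cells, against 11.54, 13.62 and 16.75 TPM in siNC cells. The groups overlapped, and the log2 difference of 0.20 (SE 0.14) was not called. It was 0.08 without siNC replicate 1, 0.12 without siAHCYL1 replicate 2 and 0.33 without siNC replicate 3, again with no call. TPM of NEAT1 sum over its short and long forms, which were not separated.

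TP53TG1, a noncoding RNA named for its induction by p53, lies at chr7:87325225-87345515 on the minus strand. Its level was 39.12, 32.61 and 36.56 TPM in siAHCYL1 cells, against 13.10, 17.54 and 17.12 TPM in siNC cells. The groups did not overlap, the ratio of means was 2.27, and the log2 difference was 1.14 (SE 0.12), with 0.95 to 1.21 over the alternatives, all called. CYTOR, listed as LINC00152, was at 16.59, 15.60 and 22.00 TPM in siAHCYL1 cells, against 9.93, 12.52 and 13.13 TPM in siNC cells. It was called higher at a log2 difference of 0.56 (SE 0.15). Its near-identical copy MIR4435-2HG was at 17.42, 15.92 and 14.90 TPM in siAHCYL1 cells, against 16.20, 16.18 and 13.88 TPM in siNC cells, and was not called (log2 difference 0.06, SE 0.10, limma adjusted p = 0.672). Reads shared by the pair could have been split between them, so the CYTOR value is uncertain.

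Several hosts belong to the class of transcripts that begin with a C followed by pyrimidines, the 5′ terminal oligopyrimidine tract, which in ribosomal protein mRNAs ties translation to growth signals. The RefSeq starts (GRCh38.p14) of 23 of the 29 transcripts were examined. At this annotated start, and on the transcribed strand only, 6 of 23 had a C followed by at least 4 bases that are C or T, against 4.04% of 27305 promoters. These were SNHG12, SNHG18, SNHG4, SNHG5, SNHG19 and ZFAS1, of which SNHG18 was the only one called. The called SNHG6 and SNHG9 were not among the 23. The windows from 20 bases before the start to 20 bases from it show the tract, with capitals for the run that begins at the start.
SNHG18, chr5:9546180-9546219, plus strand: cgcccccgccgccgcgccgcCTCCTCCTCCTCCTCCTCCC
SNHG19, chr16:2155339-2155378, minus strand: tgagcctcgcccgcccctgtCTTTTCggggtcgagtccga
SNHG12, chr1:28581854-28581893, minus strand: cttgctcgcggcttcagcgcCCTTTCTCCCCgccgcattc
SNHG5, chr6:85678714-85678753, minus strand: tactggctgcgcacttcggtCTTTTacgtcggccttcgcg
SNHG4, chr5:139274081-139274120, plus strand: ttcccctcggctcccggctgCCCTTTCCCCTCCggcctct
ZFAS1, chr20:49278622-49278661, plus strand: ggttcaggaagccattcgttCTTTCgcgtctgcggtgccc
Starts differ between annotations. The RefSeq start of GAS5 had no such run, whereas 6 of its 29 GENCODE transcripts begin with one. Among other called transcripts, such starts were found in 1 of 3 for SNHG3 and 1 of 5 for SNHG8. They were found in 1 of 25 for SNHG1, 1 of 38 for CYTOR, and 0 for MALAT1, TP53TG1 and SNHG9. For the called SNHG6, no count of such starts is given. In the promoter windows, from 250 bases before to 50 after the start, CACGTG, a palindrome read by MYC and related factors, was present in 1 of 23 (SNHG7), against 7.43% of all promoters. On either strand, TATAAA was present in 4 of 23, against 3264 of the 27305 promoters, CCGGAAGT in 1 (SNHG20), against 4.44%, and TGACGTCA in 0, against 1.98%. The median GC content was 62.0% for the 23 and 58.3% for all.

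Many of the genes start close to a coding gene on the opposite strand, an arrangement in which both can share 1 promoter region. There were 8 pairs with starts within 5 kb on opposite strands and both genes tested, including SNHG9 and RPS2. SNHG9 and RPS2 had opposite signs. Over all 8 pairs, the fitted differences had the same sign in 6, and both genes were called in 3. In the 7 pairs without SNHG9, they had the same sign in 6, and both genes were called in 2. Over all 1399 such pairs of tested genes, 55.8% had the same sign and both genes were called in 25.6%. SNHG18 and SEMA5A, a semaphorin that guides axons, start 125 bases apart. SEMA5A was at 76.49, 69.18 and 67.35 TPM in siAHCYL1 cells, against 18.67, 21.34 and 19.42 TPM in siNC cells (log2 difference 1.79, SE 0.085, limma adjusted p = 8.41e-07). Both members of that pair were therefore higher, with no overlap between groups. SNHG1 starts 188 bases from SLC3A2, the heavy chain of several amino acid transporters. SLC3A2 was at 422 ± 9.63 TPM in siAHCYL1 cells and 521 ± 41.8 TPM in siNC cells (SD, n = 3 each; log2 difference -0.30, limma adjusted p = 0.0049), lower like SNHG1. SNHG19 starts 340 bases from TRAF7, a ubiquitin ligase, which was at 121 ± 1.76 TPM in siAHCYL1 cells and 96.8 ± 1.49 TPM in siNC cells (log2 difference 0.33, limma adjusted p = 0.00133).

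The other pairs showed less. ZNFX1, beside ZFAS1, differed by 0.14 (limma adjusted p = 0.212), ZBTB37, beside GAS5, by 0.09 (limma adjusted p = 0.757), and GLRX5, beside SNHG10, by -0.15 (limma adjusted p = 0.0792). None of these passed the test. CROT, a peroxisomal carnitine acyltransferase that starts 166 bases from TP53TG1, did not pass either and had the opposite sign to its neighbour (-0.20, limma adjusted p = 0.132).

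**Figure D4:**
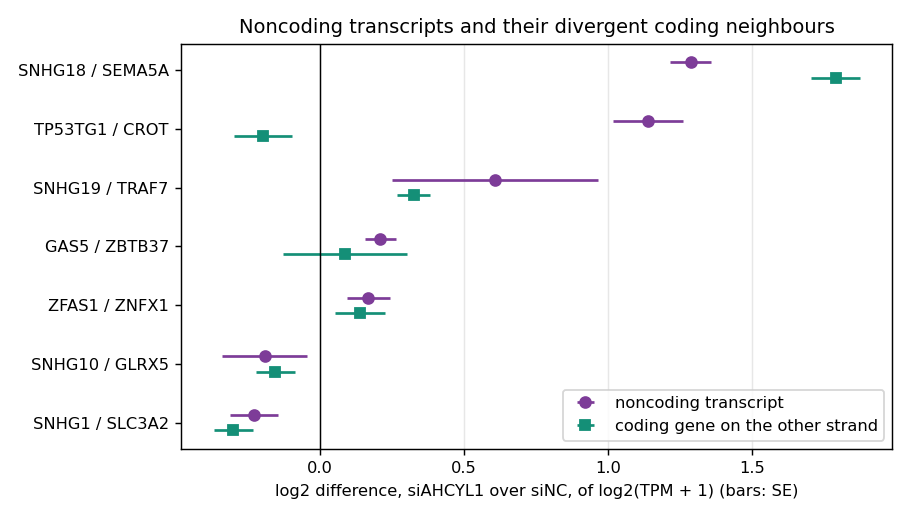
Fitted log2 difference, siAHCYL1 over siNC, of log2(TPM + 1) for 7 noncoding transcripts (circles) and the coding gene that starts within 5 kb on the other strand (squares), with SE bars. SNHG18 and SEMA5A are both far above 0, SNHG1 and SLC3A2 both below it, and TP53TG1 and CROT lie on opposite sides.

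Because strands were not separated, overlapping genes matter for the values. Of the 29, 8 are overlapped on the opposite strand by a tested gene. GAS5, SNHG10 and ZFAS1 are among the 8, overlapped by ZBTB37, GLRX5 and ZNFX1, which were given above for their close starts. FAM69B, across SNHG7, was lower (log2 difference -0.53, limma adjusted p = 0.000191), and so was TRNAU1AP, across SNHG12 (-0.44, limma adjusted p = 0.00567). SIL1, a nucleotide exchange factor of the ER chaperone BiP, overlaps SNHG4 and was higher (1.08, limma adjusted p = 5.55e-05), while SNHG4 itself differed by -0.09. On the same strand, SEC14L1 over SNHG20 was lower (-0.59, limma adjusted p = 0.00103), RCC1 over SNHG3 differed by 0.01 (limma adjusted p = 0.863), and MATR3 over SNHG4 by 0.02 (limma adjusted p = 0.884). Around the untested SNHG22, ACAA2, which starts 63 bases away, was higher (0.36, limma adjusted p = 0.00399), as was MYO5B, which overlaps it (0.50, limma adjusted p = 0.0123). The part of reads from these genes in the host values was not tested.

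Among genes for proteins that bind or build snoRNA particles, most calls were lower in siAHCYL1 cells. Of 8 core proteins of the snoRNA particles (snoRNPs), 5 were called lower and 0 higher, with a median log2 difference of -0.24. For this and the lists that follow, the shares over all genes were 21.2% lower and 30.4% higher. FBL, the methyltransferase of C/D particles, was at 192 ± 0.41 TPM in siAHCYL1 cells and 268 ± 8.49 TPM in siNC cells (-0.48, limma adjusted p = 0.000102). NHP2, of H/ACA particles, fell by 0.41 (limma adjusted p = 0.0121), NOP58 by 0.30 (limma adjusted p = 0.016; 0.25 and not called without siAHCYL1 replicate 3), and SNU13 by 0.25 (limma adjusted p = 0.0081). Without siAHCYL1 replicate 3, 3 of the 8 were called lower. Of 12 assembly and transport factors, 8 were called lower and 1 higher (median -0.35). PIH1D1 (-0.59, limma adjusted p = 0.000442), RPAP3 (-0.49, limma adjusted p = 0.00362) and RUVBL2 (-0.46, limma adjusted p = 0.0014), all of the R2TP complex, were lower, whereas NOLC1, which escorts snoRNPs between Cajal bodies and the nucleolus, was higher (0.70, limma adjusted p = 5.47e-05). The number of assembly factors called lower was 5 without siNC replicate 1, 3 without siNC replicate 2, and 4 without siAHCYL1 replicate 2 or 3. Of 10 genes for intron debranching and end trimming, 2 were higher and 3 lower, so 5 were called, near the share over all genes, with XRN2, a nuclear exonuclease, lower (-0.38, limma adjusted p = 0.00436), EXOSC2, of the exosome, lower (-0.35, limma adjusted p = 0.00615) and PARN, a deadenylase, higher (0.50, limma adjusted p = 0.00705). Median-of-ratios scaling gave 5 lower in this list.

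Coding genes can host snoRNAs too. Of 26 ribosomal protein genes that host them, 19 were called lower and 0 higher, with a median log2 difference of -0.32, but with quantile normalization 10 were called lower and 2 higher. RPL12 was at 2137 ± 68.2 TPM in siAHCYL1 cells and 3370 ± 61.8 TPM in siNC cells (-0.66, limma adjusted p = 1.62e-05), where quantile normalization gave -0.33, and RPS13 at 1236 ± 18.0 TPM in siAHCYL1 cells and 1759 ± 31.0 TPM in siNC cells (-0.51, limma adjusted p = 5.03e-05). Of 22 other coding hosts, 6 were lower and 2 higher (36.4% called, median -0.08), with 11 lower by median-of-ratios scaling. GNL3, a nucleolar GTPase also called nucleostemin, was at 98.2 ± 4.12 TPM in siAHCYL1 cells and 177 ± 13.6 TPM in siNC cells (-0.84, limma adjusted p = 1.91e-05). WDR43, a ribosome biogenesis factor (-0.67, limma adjusted p = 0.000783), and NCL, nucleolin (-0.50, limma adjusted p = 0.000367), were lower. So was RACK1, a ribosome-bound scaffold (-0.51, limma adjusted p = 0.000105, and -0.32 with quantile normalization). SNX5, an endosomal sorting protein, was higher (0.29, limma adjusted p = 0.0283). Its call was lost with quantile normalization (0.18), and with no intensity trend and robust moderation combined. It was also lost without any 1 library except siNC replicate 1 or siAHCYL1 replicate 3. The number of these hosts called higher was 1 without siAHCYL1 replicate 1, and 0 without siNC replicate 2, siNC replicate 3 or siAHCYL1 replicate 2.

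Of 19 nonsense-mediated decay factors, 7 were called higher and 2 lower, 47.4% of the list, which is near the share over all genes (51.6%). The median log2 difference was 0.14, and under either other scaling 4 were higher and 4 lower. SMG5, which recruits decay enzymes to UPF1, was at 114 ± 1.73 TPM in siAHCYL1 cells and 153 ± 2.88 TPM in siNC cells (-0.42, limma adjusted p = 0.000259). RBM8A, of the exon junction complex (0.45, limma adjusted p = 0.00036), NBAS (0.40, limma adjusted p = 0.00866; 0.26 without replicate 1 of both groups) and PNRC2, a decapping adaptor (0.35, limma adjusted p = 0.00361), were higher. The number called higher was 3 without siNC replicate 2 and 4 without siAHCYL1 replicate 2 or 3, and the number called lower was 1 without siNC replicate 1, siNC replicate 2 or siAHCYL1 replicate 3. Of 7 stress mRNAs whose transcripts decay can limit, 3 were higher and 3 lower. UPP1 (0.70, limma adjusted p = 0.00393) and DDIT3 (0.47, limma adjusted p = 0.00706) were higher, and ATF4, the transcription factor of the integrated stress response (-0.35, limma adjusted p = 0.000768), GADD45B (-0.45, limma adjusted p = 0.00196) and GADD45A (-0.55, limma adjusted p = 0.0216) were lower. The GADD45A call was lost with no filter and without siNC replicate 2 (-0.53) or 3 (-0.53), and the difference was -0.35 without siAHCYL1 replicate 1.

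Of 11 speckle proteins, 1 was called, SRRM2 (0.23, limma adjusted p = 0.036), against 51.6% of all genes. It was not called when any of siNC replicates 1 to 3 or siAHCYL1 replicates 1 or 2 was left out. Under either other scaling 0 speckle proteins were called higher and 3 lower. Of 15 paraspeckle proteins, 4 were higher and 2 lower, so 6 were called, under the share over all genes, among them CPSF7 (0.55, limma adjusted p = 0.000205) and HNRNPH3 (0.38, limma adjusted p = 0.00109), which were higher, and HNRNPK (-0.28, limma adjusted p = 0.00279), which was lower. One paraspeckle protein was called lower when siNC replicate 2, siAHCYL1 replicate 2 or siAHCYL1 replicate 3 was left out, and 4 were called lower by median-of-ratios scaling and 5 by quantile normalization. Of 18 tested p53 targets, 4 were higher and 3 lower (38.9% called, median 0.02). XPC, a DNA damage sensor, was at 32.9 ± 2.35 TPM in siAHCYL1 cells and 18.1 ± 0.66 TPM in siNC cells (0.82, limma adjusted p = 6e-05), whereas PHLDA3 (-0.94, limma adjusted p = 0.000118), TP53INP1 (-0.74, limma adjusted p = 0.00217) and the death receptor FAS (-0.94, limma adjusted p = 0.00836) were lower. FAS was low, at 0.34 ± 0.26 TPM in siAHCYL1 cells and 1.59 ± 0.61 TPM in siNC cells, and its log2 difference was -2.04 with a pseudocount of 0.1 TPM. The number of p53 targets called higher was 2 without siNC replicate 2 and 1 without siAHCYL1 replicate 2, and 5 were called lower without siAHCYL1 replicate 1. Median-of-ratios scaling gave 2 higher and 6 lower, and quantile normalization 1 higher and 6 lower.

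Among 14 other named long noncoding RNAs, 4 were called higher and 2 lower, 42.9% of the list, under the 51.6% of all genes. NORAD, a cytoplasmic RNA that binds Pumilio proteins, was at 225 ± 12.1 TPM in siAHCYL1 cells and 121 ± 0.80 TPM in siNC cells (0.88, limma adjusted p = 5.69e-06). OIP5-AS1 (0.87, limma adjusted p = 1.91e-05) and TUG1 (0.78, limma adjusted p = 0.000151) were also higher, and H19, an imprinted RNA, was lower (-1.06, limma adjusted p = 3.59e-05). The number called lower was 1 with a filter of 5 TPM, without siNC replicate 1 or 2, and without siAHCYL1 replicate 1 or 3. Of the 110 tested rows named LINC, 40 were called higher and 12 lower, and of 243 antisense rows 90 were called higher and 18 lower, with medians of 0.38 and 0.33. Of 16 microRNA host rows, 3 were called higher and 5 lower (median -0.10).

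**Figure D5:**
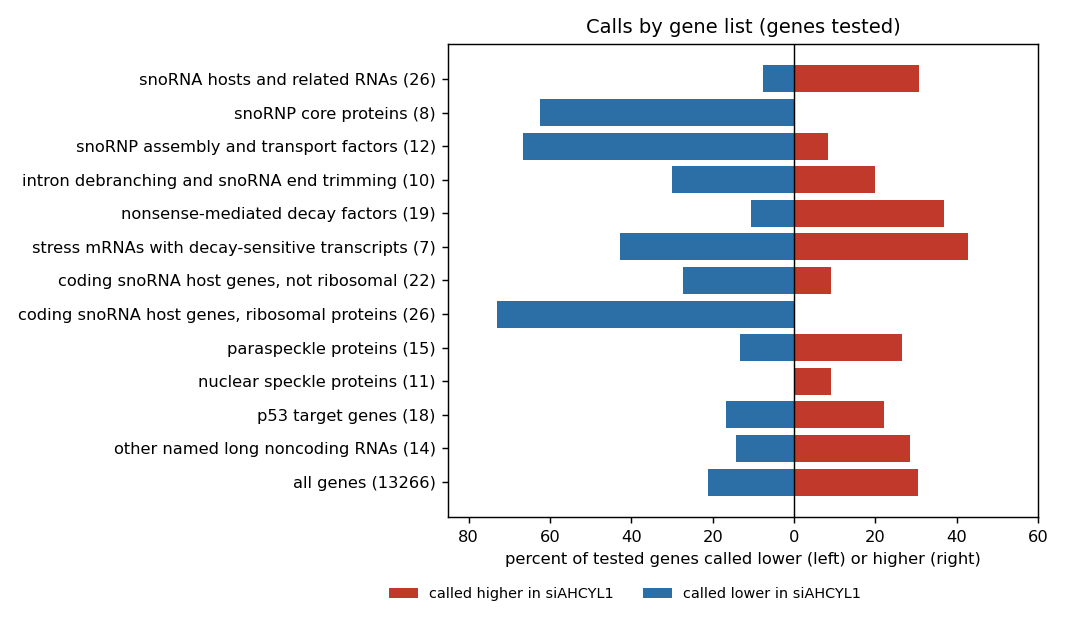
Percent of the tested genes of each list called lower (left of 0) or higher (right of 0) in siAHCYL1 cells, with the number tested in brackets and all 13266 genes at the bottom. Calls of snoRNP core proteins and of ribosomal protein hosts are all on the lower side. Of 26 snoRNA hosts and related RNAs, SNHG9 included, 8 were called higher and 2 lower (38.5% called). Over all genes, 30.4% were called higher and 21.2% lower (51.6% called).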

How the data were processed

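RNA of 6 libraries was measured. Per the labels' protocols, total RNA was made into non-directional libraries. The authors deposited 1 table of TPM. The tools STAR and RSEM and the build GRCh38 appear in the submitters' processing notes. Their versions, and the annotation, were not given in the sources used here. TPM keep no depth, so no counting interval was computed. The control columns carry the prefix nc; si columns were assigned to siAHCYL1 because only 1 other group exists.

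Here, log2(TPM + 1) was tested with limma 3.58.1 (R 4.3.3; trend, two-sided, Benjamini-Hochberg over all 13266 genes that reached 1 TPM in 3 or more libraries; adjusted p under 0.05), a step tested on simulated data. The model held the group only. The labels call the replicates biological but name no separate cultures, so the p-values reflect only how far these samples vary, which may be partly technical. The transcripts and lists were chosen with earlier results of these data known. Per-library values are given for transcripts whose higher mean is at least 5 TPM, and for SNHG9, and SNHG20 and SNHG21 were added after their values were seen. From each list up to 4 called genes were named, smallest adjusted p first, with the one going most against its list, and tested neighbours with any result. Some genes that this rule takes are left out of the text. Gene positions are from GENCODE 29, snoRNAs inside genes from GENCODE 29 and RefSeq, and starts and promoters from RefSeq GRCh38.p14. The annotation behind the table may differ. Alternatives were no filter, a 5 TPM filter, a 0.1 pseudocount, median-of-ratios and quantile scaling, the replicate number as a block, no trend with robust moderation, and libraries left out.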

Additional observations from a re-analysis of the deposited data

How the results depend on the processing

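SNHG18, SNHG8, MALAT1, TP53TG1, LINC00152 and SNHG6 kept their direction and call under all alternatives run. The call of SNHG9 follows from its choice at 0 in siNC cells and shows nothing about stability. Of the 26 transcripts, 8 were called higher and 2 lower, 38.5% of them, beside 51.6% of all genes tested. The number lower was 4 with median-of-ratios scaling and 4 with quantile normalization. It was 1 with no filter, and 1 with no intensity trend and robust moderation combined. Leaving out 1 library at a time gave 6 to 10 higher and 1 to 2 lower. Over the 11 gene lists, 28 genes were called higher and 53 lower, where 30.4% of all genes were called higher and 21.2% lower. Leaving out 1 library gave 17 to 25 higher and 39 to 55 lower in the lists. Over all genes, leaving out 1 library gave 5672 to 6799 calls, against 6844 with all libraries. Median-of-ratios scaling gave 20 higher and 74 lower in these lists, quantile normalization 20 and 57, and the replicate block 32 and 64. The cause of these changes was not tested. With the replicate number as a block, 9 transcripts were called higher and 2 lower, SNHG19 being the one added (0.61), and 7919 of all genes were called, against 6844. Equal replicate numbers matched the libraries only in part: the correlations of their deviations were 0.233, 0.001 and 0.154 for replicates 1, 2 and 3. For siAHCYL1 replicates 1 and 3 the siNC library of the same number correlated best. For siAHCYL1 replicate 2 it was siNC replicate 3 (0.153). Depth is unknown and limits what a listed 0 shows.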
